A study of Mus musculus with 10 samples.

Results

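The cytoplasmic ribosome of the mouse is built from ribosomal RNA and a set of small proteins, each encoded by its own gene and most needed in equal numbers. Small-subunit proteins carry names beginning with Rps and large-subunit proteins names beginning with Rpl. The genes were taken by symbol: Rpl or Rps followed by a number, or Rpsa, Rplp0, Rplp1 or Rplp2, leaving out the Rps6k kinases and symbols marked as pseudogenes. This rule found 90 genes among the 38720 symbols of the count table. Of these, 77 encode the standard proteins of the subunits, 31 in the small and 46 in the large subunit. The other 13 are paralogs and similarly named genes. Among them, Rps3a2, Rps3a3, Rps4y2 and Rps12l1 are annotated in GENCODE as processed pseudogenes, though their symbols are not marked so. A filter on low counts left 85 genes for testing, all 77 standard genes among them. The 5 that were not tested, Rpl3l, Rpl10l, Rpl39l, Rps12l1 and Rps12l2, held at most 10 counts in any library.

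Gene expression was measured by RNA sequencing in the microdissected tail bud, the growth zone at the posterior end of the embryo, at E12.5. The Lin28a-induced group of replicates 2 to 5 (n = 4) carried TRE-Lin28a, a Lin28a transgene switched on by doxycycline, RLSL-rtTA, a doxycycline-dependent activator made only after Cre recombination, and FoxD1-Cre, and was treated with doxycycline. The no-Cre group (replicates 6, 7 and 8, n = 3) carried TRE-Lin28a and RLSL-rtTA and was also treated, but lacked Cre. For the wild-type group, replicates 1 to 3 (n = 3), the labels mention neither transgene and no doxycycline. The activator is made only in cells where the FoxD1-Cre allele has acted and in their descendants, while the whole dissected tissue was sequenced. Nothing states that every library is from its own embryo, and p-values then cover only the variation among these libraries, which may be technical.

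The Lin28a protein binds RNA, keeps let-7 precursors from being processed into mature microRNAs and also attaches to many messenger RNAs. Most ribosomal protein messages open with a run of pyrimidines after a cytosine, the 5′ terminal oligopyrimidine (TOP) motif, through which mTOR and LARP1 control their translation. Free Rpl5 and Rpl11 bind Mdm2 and so stabilise p53 when ribosome assembly fails. In mice, mutations of Rpl38 (Tail short) and Rpl24 (Belly spot and tail) alter the tail and axial skeleton. Mutations of Rps19 and Rps20 darken the skin, and those of Rps7 and Rpl27a have skeletal, skin or neural effects.

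The first bases of the transcripts carry the TOP motif, so the annotated starts of 8 genes are shown, each with 10 bases before and 20 after the start (RefSeq, GRCm38.p6). The first 4 had among the largest differences from wild type, the next pair differed in the opposite direction, and the last pair are the paralogs that separated the Lin28a-induced from the no-Cre libraries. Capitals mark a TOP-like run, here at least 5 pyrimidines that open with C and start within 10 bases of the annotated start, read on the sense strand.
Rpl39 (chrX:37085203-37085232, minus strand): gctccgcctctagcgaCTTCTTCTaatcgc
Rpl35 (chr2:39005112-39005141, minus strand): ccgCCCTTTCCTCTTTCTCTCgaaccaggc
Rpl38 (chr11:114668570-114668599, plus strand): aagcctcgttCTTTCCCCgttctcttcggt
Rps12 (chr10:23787190-23787219, minus strand): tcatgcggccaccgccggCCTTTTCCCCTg
Rpl34 (chr3:130730318-130730347, minus strand): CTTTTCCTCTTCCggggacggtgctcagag
Rps2 (chr17:24720053-24720082, plus strand): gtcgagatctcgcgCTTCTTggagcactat
Rpl7l1 (chr17:46782637-46782666, minus strand): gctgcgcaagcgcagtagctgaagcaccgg
Rpl36al (chr12:69184048-69184077, minus strand): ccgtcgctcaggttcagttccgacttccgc

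The first 6 hold such a run and the 2 paralogs hold none in this stretch. Rps25, which also had among the largest differences from wild type but is not shown, held no such run. Of the 90 genes, 65 matched a RefSeq promoter window of 300 bases, and 39 of these (60.0%) had a TOP-like run, against 34.4% of all 27025 genes with a window and 37.3% of the 11196 tested ones. The ETS-like motif CCGGAAG, on either strand, stood in the windows of 26 genes (40%), against 9.9% of all and 18.0% of the tested genes. The E-box CACGTG stood in 6 (9.2%), against 8.1% of all and 11.2% of the tested genes. A match describes letters only, and annotated starts can lie some bases from the starts used in this tissue.

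The depth of the libraries ran from 21762668 to 39517946 counts. Every standard gene but Rpl23a held at least 934 counts in every library. Lin28a stood at 605 to 750 CPM (counts relative to the scaled size of each library) in the Lin28a-induced libraries, at 2.64 to 5.03 in no-Cre and at 4.45 to 6.16 in wild type. Tail bud markers such as T and Cdx2 were present in all libraries, with T at 127 CPM or more. The wild-type libraries differed from the other 7 in several shares of their counts. Mitochondrially encoded transcripts took 1.85% to 2.69% in wild type and 0.446% to 0.690% in the others. The 5 surface ectoderm markers together took 0.0451% to 0.0595% in wild type against 0.0166% to 0.0197%, and all 5 were called higher in wild type than in either other group. The 4 endothelial markers took 0.00460% to 0.00967% against 0.0205% to 0.0282%, and all 4 were called lower in wild type. The 7 macrophage markers took 0.00235% to 0.00654% against 0.00747% to 0.0109%, and 5 and 4 of them were called lower in wild type than in the Lin28a-induced and no-Cre groups. The 11 tail bud markers took 0.0468% to 0.102% in wild type, lowest in replicate 2, against 0.103% to 0.1415% in the others. All 11 had lower fitted levels in wild type than in either other group. Of them, 2 and 3 were called lower in wild type than in the Lin28a-induced and no-Cre groups. The labels used here give no strain. Genotype, genetic background, treatment and any unlabelled batch cannot be told apart in the comparisons with wild type.

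Among the standard genes, mean levels over all libraries ran from 3.83 CPM (Rpl23a) to 1768 CPM with a median of 414 CPM, and 75 of the 77 exceeded 100 CPM. Per kilobase of coding sequence, the highest was Rpl41 at 5526 CPM, whose coding sequence is only 75 bases, so that reads from its untranslated parts weigh heavily. Rps14, a small-subunit protein at 2557 CPM per kilobase, and Rplp1, a protein of the ribosome's stalk at 2537, followed. The ranking from the lowest covered the tested genes with an annotated coding sequence, paralogs and others included. Rps3a2, Rps3a3 and Rps4y2 were tested but have no annotated coding sequence, so they were not ranked. The lowest were Rpl23a at 8.19, Rps19bp1 at 63.0 and Rpl24 at 86.1 CPM per kilobase. Rps19bp1 is a regulator of p53 deacetylation named for its binding to Rps19. These levels partly reflect mapping. Ribosomal protein genes have many processed pseudogenes, and a read of 75 bases that fits several copies may not be counted. Over the 89 genes with an annotated locus, the median share of 75-base stretches also found in the transcript of another annotated gene was 50.3%. It was 81.7% for Rpl23a and 80.9% for Rpl24, but 7.6% for Rpl39 and 4.2% for Rpl7l1. How far this loss differed between libraries was not tested.

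The Lin28a-induced and no-Cre groups share both transgenes and doxycycline, so their comparison asks what accompanies the FoxD1-Cre allele and the Lin28a it switches on. Ribosomal protein genes as a group took nearly the same share of counts in both. The share was 3.63%, 3.38%, 3.48% and 3.26% in Lin28a-induced replicates 2 to 5 and 3.65%, 3.61% and 3.50% in no-Cre replicates 6 to 8. Lin28a-induced replicate 2 lay within the no-Cre range and the other 3 just below it. Of the 85 genes, 2 were called (edgeR quasi-likelihood test, Benjamini-Hochberg adjusted over all 16340 tested genes, threshold 0.05): Rpl7l1 was higher and Rpl36al lower. Over all tested genes, 2.91% were called, 1.76% higher and 1.15% lower, so the share of these genes called was near the background.

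**Figure D1:**
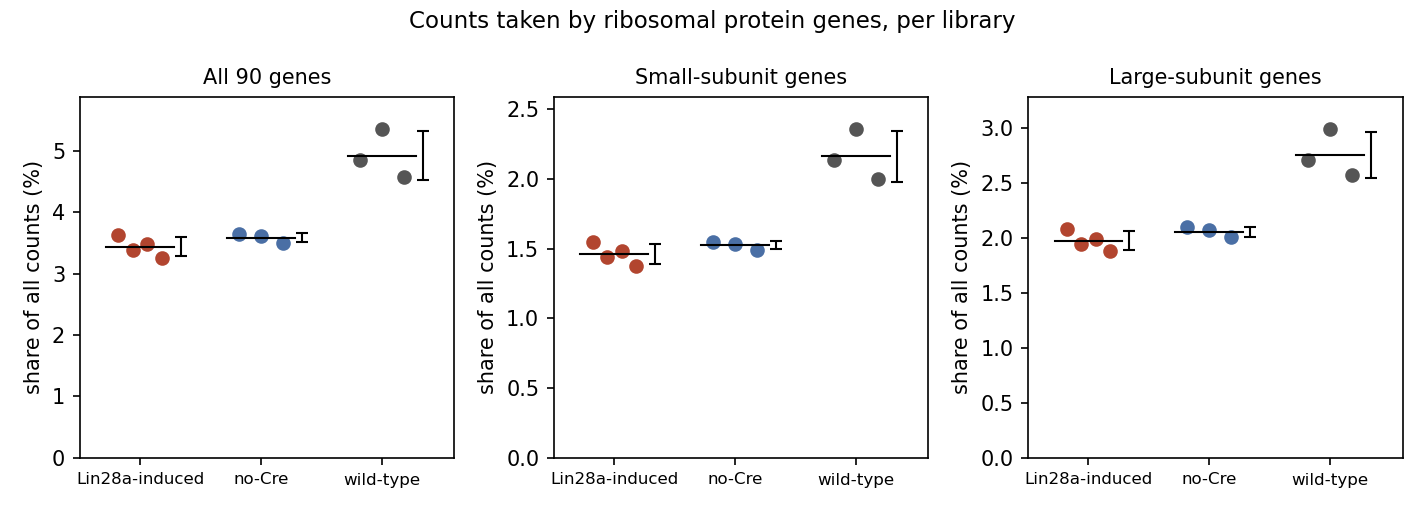
Share of all counts (%) taken by the 90 ribosomal protein genes (left) and by those of the small and large subunit, 1 point per library, with the mean (line) and SD (bar). The 7 transgenic libraries lie between 3.26% and 3.65%, and the 3 wild-type libraries between 4.57% and 5.345%.

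Rpl7l1, a paralog of Rpl7 found in ribosome precursors rather than in the mature large subunit, lies on chr17:46773907-46782672 (GRCm38, minus strand). It stood at 253, 250.4, 258.5 and 265 CPM in Lin28a-induced replicates 2 to 5, at 219.8, 208 and 204 in no-Cre replicates 6 to 8 and at 219.7, 211 and 213 in wild-type replicates 1 to 3. All 4 Lin28a-induced libraries lay above all 6 others, while the no-Cre and wild-type libraries overlapped. The log2 fold change was 0.29 ± 0.048 (SE) over no-Cre (adjusted p = 0.00655) and 0.26 ± 0.048 over wild type (adjusted p = 0.000622). No-Cre minus wild type came to -0.029 ± 0.051 (adjusted p = 0.678). Leaving out no-Cre replicate 7 or 8 ended the call against no-Cre, with fold changes of 0.28 (adjusted p = 0.0592) and 0.26 (adjusted p = 0.0626).

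Rpl36al encodes a near-identical, ubiquitously expressed copy of Rpl36a and lies on chr12:69182731-69184083 (minus strand). It stood at 42.0, 40.7, 39.7 and 40.02 CPM in the Lin28a-induced libraries, at 50.1, 49.1 and 47.4 in no-Cre and at 61.5, 62.1 and 54.2 in wild type. The 3 groups formed 3 steps with no overlap. The log2 fold change against no-Cre was -0.27 ± 0.059 (adjusted p = 0.0276). This call held in only 1 of the 7 fits that left out a library of these groups, the fit without Lin28a-induced replicate 2, with adjusted p from 0.0437 to 0.134. Of its 75-base stretches, 61.3% are also found in other annotated transcripts.

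**Figure D2:**
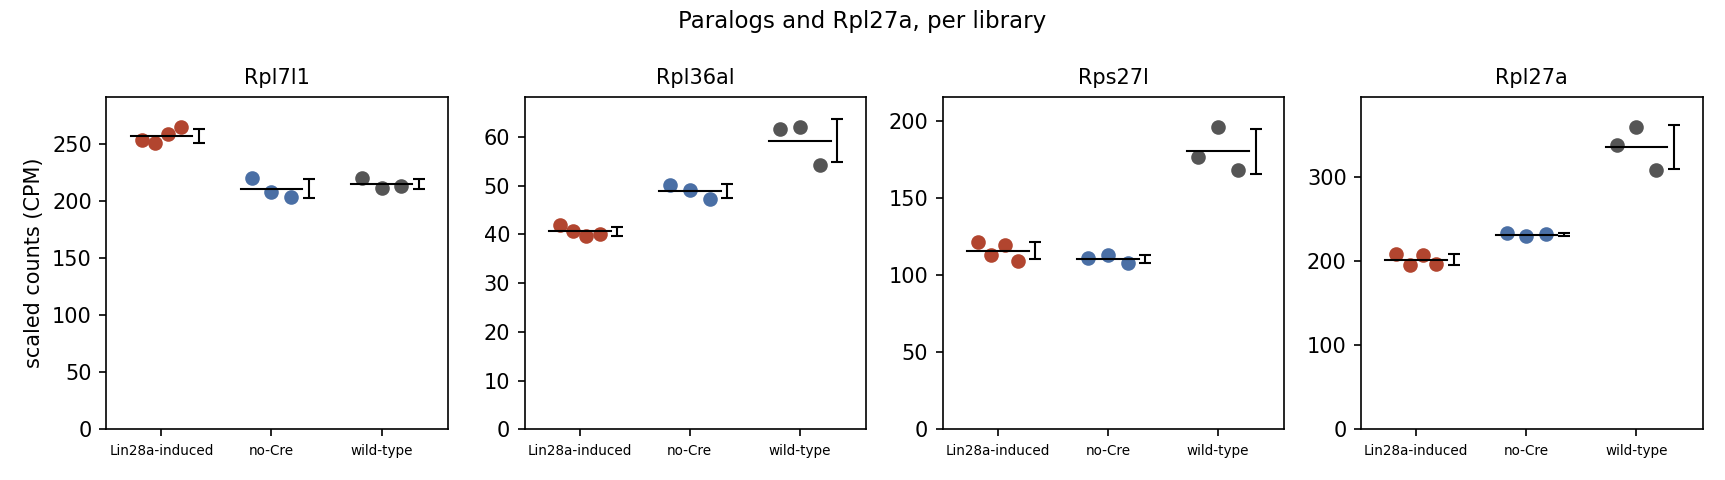
Scaled counts (CPM) of 3 paralogs and of Rpl27a, 1 point per library, with the mean (line) and SD (bar) of each group. Rpl7l1 is highest in the 4 Lin28a-induced libraries, Rpl36al and Rpl27a are lowest there, and Rps27l is highest in the 3 wild-type libraries.

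The 77 standard genes leaned slightly lower in the Lin28a-induced libraries without any of them passing the threshold. Of these, 67 had a fold change below 0, with a median of -0.072 on the log2 scale, and 16 had an unadjusted p under 0.05, all lower. Over all 85 genes, DESeq2 called 4 (1 higher, 3 lower), where it called 7.36% of all genes, and limma-voom called 2, where it called 3.29% of all. Over all 16340 tested genes, the median was -0.001 and 50.3% lay below 0. Of them, 2658 had an unadjusted p under 0.05 in edgeR, 1294 lower and 1364 higher. In 32 of the 85 genes every Lin28a-induced library lay below every no-Cre library, against 11.4% of all tested genes. The medians were -0.086 for the small and -0.065 for the large subunit. The standard deviation of the libraries' own median over all 85 genes, within these 2 groups, was 0.050. Red blood cell markers took 0.377% to 0.610% of the counts in the Lin28a-induced and 0.563% to 0.943% in the no-Cre libraries, with all 10 fold changes below 0 and none called. Macrophage markers took 0.00914% to 0.0109% and 0.00747% to 0.00938%, with all 7 fold changes above 0 and none called. The part of either in the lean was not tested.

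Rpl27a, a large-subunit protein mutated in the Sooty foot ataxia mouse, came nearest to the threshold among the named standard genes. It stood at 208, 195, 207 and 196 CPM in the Lin28a-induced libraries and at 233, 229 and 231 in no-Cre, with no overlap (-0.20 ± 0.056, adjusted p = 0.075). Rps20, a small-subunit protein, stood at 335, 329, 339.5 and 316 CPM against 391, 382 and 369.6, a fold change of -0.21 ± 0.074 (adjusted p = 0.167). Rps27, which has a role in early ribosome assembly, differed by -0.20 ± 0.072 (adjusted p = 0.162). The laminin receptor Rpsa, also a small-subunit protein, differed by -0.18 ± 0.061 (adjusted p = 0.143). The stalk genes Rplp0, Rplp1 and Rplp2 had fold changes of -0.15, -0.13 and -0.14, with adjusted p of 0.151, 0.348 and 0.225. The 4 standard genes on the X chromosome were Rps4x, Rpl10, Rpl36a and Rpl39, each named as the partner of a paralog. Every Lin28a-induced library lay below every no-Cre library in all 4, as in 32 of the 85 genes and 11.4% of all tested genes. Their fold changes ran from -0.20 (Rpl39) to -0.14 (Rpl36a), and none passed.

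Whether these small differences passed depended on which libraries entered the fit. With only the Lin28a-induced and no-Cre libraries in the fit, 17 of 85 genes were called, 1 higher and 16 lower. Of all genes, 11.2% were called in that fit, 5.71% higher and 5.50% lower. The 16 ranged from -0.27 (Rpl36al) to -0.13 (Rplp1) and included Rps20, Rps27, Rpl27a, Rpl39, Rpsa, Rps4x, Rpl10 and Rplp0. With wild-type replicate 2 left out of the fit of all groups, 14 were called, 13 of them lower, against 8.87% of all genes in either direction. The median of the 85 genes was -0.078 in that fit and -0.075 in the fit of all libraries.

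Genes known for signalling to p53 did not pass in this comparison. Rpl5 differed by 0.015 (95% confidence interval -0.12 to 0.15) and Rpl11 by 0.033 (-0.096 to 0.16). Rpl23, Rpl26, Rps14 and Rps27a, also reported to bind Mdm2, had fold changes of -0.025, -0.077, 0.011 and -0.075, with adjusted p of 0.611 or more. Rps27l, a paralog of Rps27 and a p53 target gene, stood at 121, 113, 119 and 109 CPM in the Lin28a-induced and at 111, 113 and 107.5 in the no-Cre libraries, which overlapped. Its fold change was 0.067 (-0.063 to 0.20, adjusted p = 0.655). Cdkn1a, another p53 target, rose by 1.12 ± 0.11 on the log2 scale in the same comparison (adjusted p = 9.23e-05), from 17.0 to 37.0 CPM. It was the only gene called of a list of 13 Myc and p53 regulators. Rpl38 and Rpl24, whose mutants have altered tails, differed by -0.060 (-0.24 to 0.12) and 0.032 (-0.11 to 0.18).

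Lists of other genes of the pathway were set beside the ribosomal proteins. Of all 16340 tested genes, 2.91% were called. At an unadjusted p under 0.05 in edgeR, 1294 of all genes were lower and 1364 higher. Of 17 translation factors and related genes with a TOP motif, 3 were called lower and none higher, with a median of -0.13 and 10 at an unadjusted p under 0.05, all lower. Tpt1, the abundant translationally controlled protein, fell by 0.30 ± 0.054 (adjusted p = 0.00997), from 754 to 614 CPM. Eef2, the translocation factor of elongation, fell by 0.25 ± 0.054 (adjusted p = 0.0276), and Btf3, a subunit of the nascent-chain complex, fell by 0.22 ± 0.048 (adjusted p = 0.0308). Of 38 ribosome biogenesis genes none passed in edgeR, with a median of 0.099, and 12 had an unadjusted p under 0.05, all higher, led by Nip7 (0.23 ± 0.067, adjusted p = 0.0874) and Nop2 (0.20 ± 0.061, adjusted p = 0.0997). Of 14 RNA polymerase I genes none passed (median 0.061, 1 at an unadjusted p under 0.05). Of 20 genes of mTOR signalling and TOP control, Larp4, a poly(A)-binding protein, rose by 0.39 ± 0.057 (adjusted p = 0.00251) and no other passed. Myc and Mycn, regulators of ribosome production, had fold changes of -0.070 (adjusted p = 0.777) and 0.066 (adjusted p = 0.74).

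**Figure D3:**
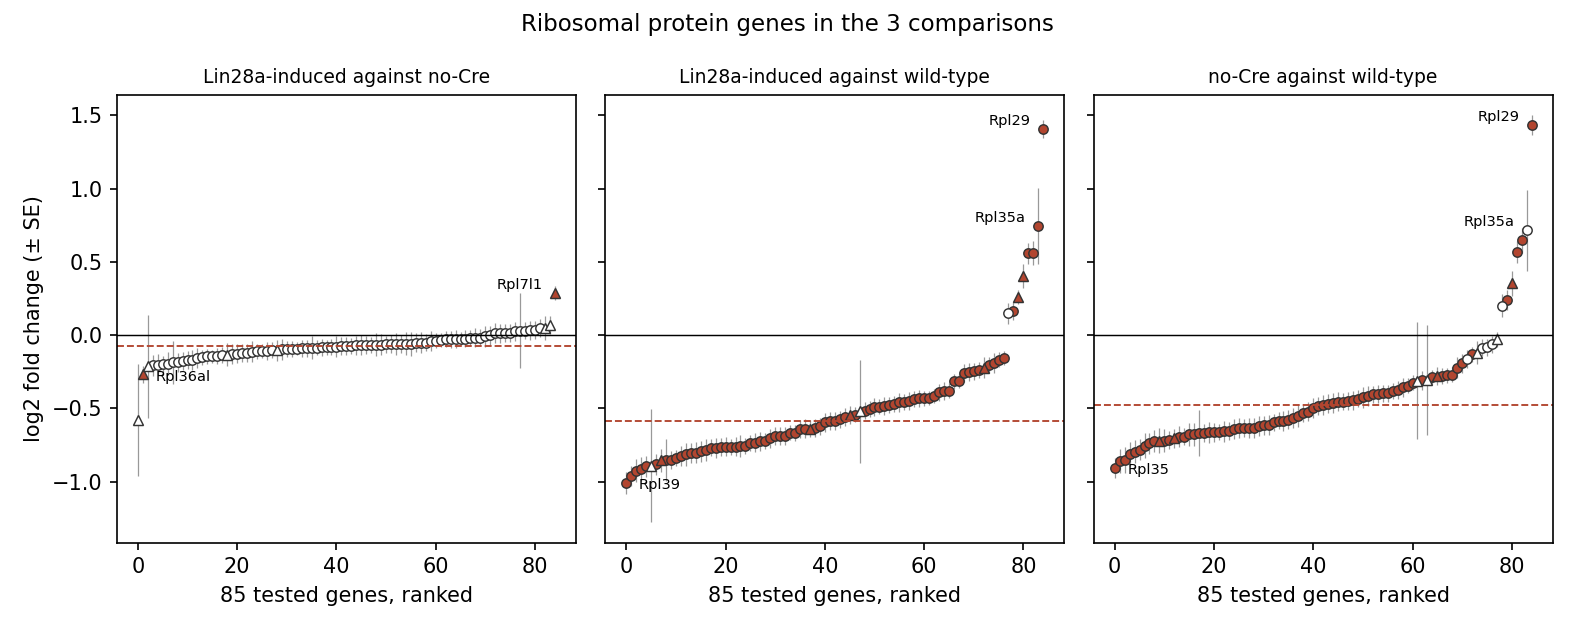
Log2 fold changes of the 85 tested genes, ranked within each comparison, with their SE (grey bars). Circles are standard subunit proteins, triangles paralogs and others; filled points passed the threshold, and the dashed line is the median, at -0.075, -0.586 and -0.475 from left to right.

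The comparisons with wild type ask how both transgenic groups differ from embryos whose labels name neither transgene nor doxycycline. The 2 comparisons share the wild-type libraries, so their values are given side by side and not as independent evidence. Ribosomal protein genes took 4.84%, 5.345% and 4.57% of the counts in wild-type replicates 1, 2 and 3, above all 7 transgenic libraries. Against wild type, 75 of the 85 genes were lower and 7 higher in the Lin28a-induced group. In the no-Cre group 70 were lower and 5 higher. The background was high, with 49.3% and 42.5% of all tested genes called. In detail, 24.3% of all tested genes were called higher and 25.0% lower in the Lin28a-induced group, and 21.0% and 21.4% in no-Cre. Calls over all genes were split evenly by direction, and those among ribosomal protein genes were nearly all lower. In 76 genes all Lin28a-induced libraries lay below all wild-type libraries, against 24.6% of all genes, and in 70 all no-Cre libraries did, against 26.2%. The median log2 fold change of the 85 genes was -0.586 in the Lin28a-induced and -0.475 in the no-Cre group, where all genes had -0.018 and -0.016. In bulk tissue, fewer cells of a type and less RNA per cell cannot be told apart.

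The largest falls against wild type were those of Rpl39, Rpl35, Rps25, Rpl38 and Rps12. Rpl39, a short protein lining the exit tunnel, stood at 227.5, 251 and 189 CPM in wild-type replicates 1 to 3, at 114, 109.8, 112 and 106.5 in the Lin28a-induced and at 129, 127 and 123 in the no-Cre libraries. No transgenic library reached the lowest wild-type value. The fold changes were -1.01 ± 0.076 (adjusted p = 2.73e-07) and -0.81 ± 0.082 (adjusted p = 5.60e-06) for the Lin28a-induced and no-Cre groups. Rpl35, at the tunnel exit, differed by -0.96 ± 0.066 and -0.91 ± 0.071, and Rpl38 by -0.91 ± 0.081 and -0.85 ± 0.088. In the small subunit, Rps25, required for several internal ribosome entry sites, differed by -0.93 ± 0.077 and -0.86 ± 0.084, and Rps12 by -0.90 ± 0.072 and -0.80 ± 0.078. All of these had adjusted p of 7.07e-06 or less in edgeR.

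The members with other roles moved less evenly. Rplp1 fell by 0.76 ± 0.064 and 0.64 ± 0.069 on the log2 scale, while its stalk partner Rplp2 fell by 0.20 ± 0.055 in the Lin28a-induced group and did not pass in no-Cre (-0.064 ± 0.059, adjusted p = 0.397). Rplp0, the base of the stalk, behaved likewise, with -0.24 ± 0.053 and -0.086 ± 0.056 (adjusted p = 0.00204 and 0.234). The Mdm2-binding Rpl5 and Rpl11 fell by 0.46 and 0.49 in the Lin28a-induced and by 0.475 and 0.52 in the no-Cre group. Rps27l was lower by -0.64 ± 0.060 and -0.71 ± 0.065, and Rpl22l1, the paralog of Rpl22, by -0.85 ± 0.079 and -0.72 ± 0.085. Rpl22 itself differed by -0.67 ± 0.052 and -0.58 ± 0.056.

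Other genes with short transcripts also had medians below 0. Leaving out the 90 genes, 1530 tested genes had annotated transcripts under 1000 bases. Their median fold change was -0.332 in the Lin28a-induced and -0.325 in the no-Cre group. Pseudogene rows of the family were not left out of the length classes. The 45 tested rows with such symbols had medians of -0.698 and -0.527. Genes of 1000 to 3000 bases had medians of -0.043 and -0.047, and longer genes 0.062 and 0.061. The shares called were 40.1% and 34.8% in the shortest class, 46.1% and 39.7% in the middle and 53.8% and 46.3% in the longest. With offsets for length and GC content in the fit, the medians of the 85 genes moved to -0.329 and -0.253, and 67 and 62 genes were called lower and 8 and 7 higher. In those fits 47.7% and 41.5% of all genes were called. Rpl24 was called lower in both comparisons without offsets (-0.19 and -0.22), but in only 4 of 7 and 3 of 6 fits that left out a library. The calls were lost without Lin28a-induced replicate 2 or 4 or wild-type replicate 2 (adjusted p up to 0.127), and without no-Cre replicate 6 or 8 or wild-type replicate 2 (up to 0.086). With offsets it had fold changes of 0.15 (adjusted p = 0.0671) and 0.071 (adjusted p = 0.42). The order of wild-type libraries was also the same for both gene classes, replicate 2 highest and replicate 3 lowest, as the plot of medians per library shows. The part of RNA quality, of cell composition and of library preparation in the difference was not tested. Genes with and without a TOP-like run were both lower: the 36 tested genes with a run had medians of -0.65 and -0.58, and the 26 without had -0.52 and -0.45.

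**Figure D4:**
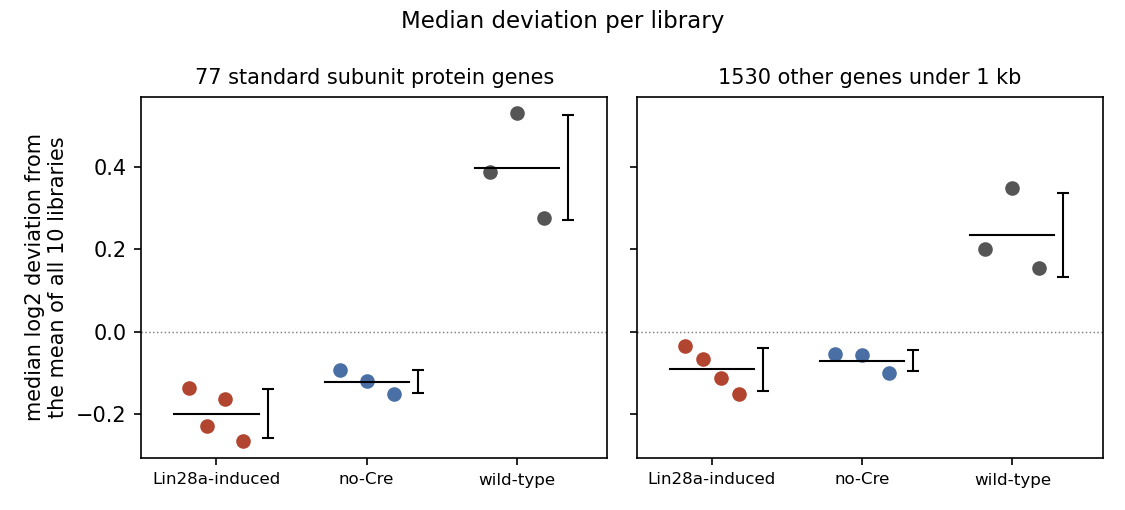
Median log2 deviation of each library from the mean of all 10 libraries, for the 77 standard genes (left) and for 1530 other genes with transcripts under 1000 bases (right), with the mean (line) and SD (bar) of each group. Both gene classes lie above 0 in the 3 wild-type libraries and below 0 in the other 7, and the ribosomal protein genes lie farther out, between 0.276 and 0.531 in wild type.

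A few members went the other way and were lower in wild type. Rpl29, a large-subunit protein on chr9:106429454-106431568 (plus strand), stood at 57.7, 62.75 and 53.9 CPM in wild type, at 155, 143, 159 and 159 in the Lin28a-induced and at 159, 160.0 and 153 in the no-Cre libraries. The 7 transgenic libraries were alike and all far above wild type. The fold changes were 1.41 ± 0.063 (adjusted p = 1.49e-09) and 1.43 ± 0.066 (adjusted p = 2.49e-09), the largest rises of any member. Of 42 annotated pseudogenes that share stretches with Rpl29, 27 had a row among the counts that was assigned to it. The summed level of these 27 was 3.3 to 6.08 CPM in wild type and at most 1.82 elsewhere. Adding them left fold changes of 1.31 and 1.34.

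Rpl35a, a large-subunit protein whose loss causes Diamond-Blackfan anaemia in people, split the wild-type libraries. Its level was 69.7 CPM in wild-type replicate 1 and 68.15 in replicate 2, while replicate 3 had 148, next to 149.6 to 163.3 in the transgenic libraries. Against wild type, the Lin28a-induced group was higher by 0.74 ± 0.26 (adjusted p = 0.0453). This call held in only 1 of the 7 fits that left out a library. Without wild-type replicate 3 the value was 1.21 (adjusted p = 1.68e-08). Leaving out wild-type replicate 1 (0.56, adjusted p = 0.123) or 2 (0.55, adjusted p = 0.152) ended the call, as did leaving out any of the 4 Lin28a-induced replicates (adjusted p = 0.0679 to 0.085). In the no-Cre group against wild type, Rpl35a did not pass (0.71 ± 0.28, adjusted p = 0.0703), with 1.19 (adjusted p = 3.55e-08) when wild-type replicate 3 was left out.

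Rps2, a small-subunit protein of the decoding centre, stood at 625, 586.5 and 784 CPM in wild-type replicates 1 to 3 and at 938.5 to 1082 CPM in the transgenic libraries. Its fold changes were 0.56 ± 0.081 (adjusted p = 9.71e-05) and 0.65 ± 0.086 (adjusted p = 7.20e-05). The pseudogene row Rps2-ps13 was at 175, 175 and 0.551 CPM in these 3 libraries, in the same order, and at 0.377 CPM or less in the other 7. Where the pseudogene row was high, Rps2 was lowest. Adding the counts of the 31 annotated pseudogene rows assigned to Rps2 left fold changes of 0.32 (adjusted p = 9.67e-05) and 0.41 (adjusted p = 3.32e-05).

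Rpl26 also had a pseudogene row that was high in wild type, there in all 3 libraries. It stood at 225, 249.8 and 206 CPM in wild type against 243 to 277 in the transgenic libraries, with an overlap between wild-type replicate 2 and the Lin28a-induced group, and was called higher in both groups (0.16 ± 0.063, adjusted p = 0.0426, and 0.24 ± 0.067, adjusted p = 0.0105). The call in the Lin28a-induced group held in only 2 of the 7 fits that left out a library (adjusted p up to 0.183, lost without Lin28a-induced replicate 2, 3 or 4 or wild-type replicate 1 or 3) and was lost with upper-quartile scaling (adjusted p = 0.202). Its pseudogene Gm15772 was at 111, 132 and 113 CPM in wild type and at 0.561 CPM or less elsewhere. Unlike Rps2, Rpl26 was highest in the wild-type library where its pseudogene row was highest. With its pseudogenes added, Rpl26 was lower than wild type, by -0.44 (adjusted p = 6.09e-05) and -0.365 (adjusted p = 0.000697). Rpl34 rose by 0.56 ± 0.073 and 0.57 ± 0.077 on the log2 scale and Rps4y2, the copy of Rps4x annotated in GENCODE as a transcribed pseudogene, by 0.40 ± 0.082 and 0.35 ± 0.087. Rps18 did not pass in either comparison.

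**Figure D5:**
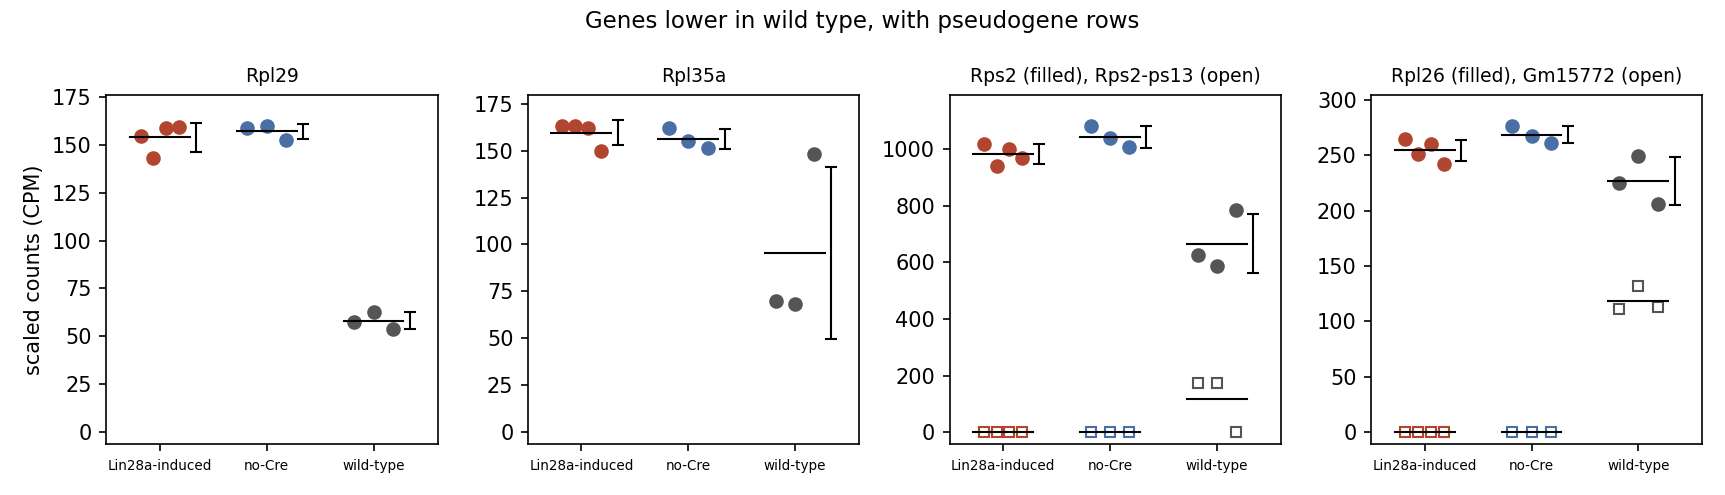
Scaled counts (CPM) of 4 genes that were lower in wild-type libraries (filled circles) and of a pseudogene row of Rps2 and of Rpl26 (open squares), 1 point per library, with the group mean (line) and, for the genes, the SD (bar). Rps2-ps13 is at 175 CPM in the wild-type replicates where Rps2 is lowest, and Gm15772 exceeds 110 CPM only in wild type.

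More pseudogene rows of this family were high only in wild-type libraries. Of 23 rows of annotated pseudogenes that reached 5 CPM in a library, 7 reached it in wild type while staying under 1.5 CPM in all 7 transgenic libraries. Besides the 2 above, these were Gm11942 of Rplp1 (95.4, 108 and 97.9 CPM in wild type), Gm6472 of Rps7 (62.9, 68.7 and 59.5), Gm11222 of Rpl7l1 (8.19, 4.75 and 7.39), Gm6404 of Rpl34 (5.80, 6.61 and 5.37) and Gm8420 of Rpl15, with 7.99 CPM in wild-type replicate 1, 0.162 in replicate 2 and 8.31 in replicate 3. Rows outside this family were not counted at these limits. Rows of this kind were chosen after their values were seen. Their part in the differences of the parent genes was not tested, nor was that of genetic background. With pseudogenes added to their genes, 82 and 76 of the 85 genes were called against wild type. In the same comparisons 49.3% and 42.5% of all genes were called. With the pseudogenes, Rplp1 fell by 0.88 and 0.75 and Rps7 by 0.94 and 0.85 on the log2 scale. Rpl7l1 remained higher in the Lin28a-induced group than in wild type, by 0.21 (adjusted p = 0.0026).

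Other lists against wild type did not follow a single direction. Of all tested genes, 49.3% were called in the Lin28a-induced group (24.3% higher, 25.0% lower). In no-Cre 42.5% were called (21.0% higher, 21.4% lower). Among ribosomal proteins under other names, Fau (-0.67 and -0.58) and Gnb2l1, now called Rack1 (-0.46 and -0.39), were lower in both groups. Of 17 TOP translation factors, 11 were lower and 1 higher in the Lin28a-induced group, with 9 and 3 in no-Cre. Of 38 ribosome biogenesis genes, 9 were higher and 3 lower in the Lin28a-induced group, with 6 and 8 in no-Cre, and medians of 0.026 and -0.020. Their shares called, 31.6% and 36.8%, lay below those of all genes. Of 20 genes of mTOR signalling and TOP control, 9 were higher in each group, with 3 and 1 lower. Of the 13 Myc and p53 regulators, 6 were higher and 5 lower in the Lin28a-induced group, with 3 and 3 in no-Cre. Mycn, among them, was higher by 0.61 ± 0.075 and 0.54 ± 0.080 (adjusted p = 2.24e-05 and 0.000136).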

How the data were processed

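RNA from 10 tail bud libraries was sequenced as stranded 75-base single reads, per the labels' protocols. The deposited values are raw counts per gene symbol. Per the submitters' processing notes, the tools were STAR 2.3.1z4 and featureCounts, with the build mm10. How strand and multi-mapping reads were treated is not stated in those notes. Of 38720 symbols, 35654 matched GENCODE M21 (GRCm38) by symbol, 1765 by a RefSeq synonym and 1301 not at all.

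Counts were filtered with filterByExpr, scaled by TMM and tested in edgeR 4.0.16 by quasi-likelihood (robust, 1 coefficient per group, all 10 libraries, threshold 0.05, adjusted over 16340 genes). Adjusted p-values are edgeR's except where DESeq2 or limma is named, and SE is the standard error of the log2 fold change. Alternatives used DESeq2 1.42.0, limma 3.58.1, other scalings and filters, length and GC offsets (lowess span 0.2), fewer groups and each library left out. R 4.3.3 and Python 3.11.15 were used. The edgeR procedure was tested on simulated data. Members, lists and alternatives were chosen with earlier results of these data known. Named genes are paralogs and genes with known roles, the 5 largest called rises and falls of each comparison and the 3 highest and lowest per kilobase. Pseudogene rows and Rps18 were chosen after their values were seen, as were the alternatives without a wild-type library in the third group and with pseudogenes added. A gene of the lists is not reported here.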

Additional observations from a re-analysis of the deposited data

Results flagged for a closer look

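In the group of 4 Lin28a-induced libraries, replicate 5 lay apart from the other 3 in 3 of the 40 named genes. It was the lowest for Rpl22l1 (97.3 CPM against 107 to 109), for Rpl35a (149.6 CPM against 162 to 163) and for Rps19bp1 (23.9 CPM against 25.6 to 25.7). Each gap took up nearly the whole range of the group. Chance flags about 1 gene in 20 by this measure.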

How the results depend on the processing

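Against no-Cre, the count of called genes was the least stable result: 2 in the fit of all libraries (2.91% of all genes called), 4 with DESeq2 (7.36%), 6 with length and GC offsets (4.33%), 17 with only the groups compared (11.2%), 14 and 4 (8.87% and 3.58%) with wild-type replicate 2 or 3 left out of the third group, and 0 to 2 when a library of the 2 groups was left out (0 without no-Cre replicate 7 or 8). In the leave-outs of the 2 groups compared, 0.624% to 1.86% of all genes were called. The median of the ribosomal protein genes stayed between -0.096 and -0.053 there. Against wild type, 79 to 82 (Lin28a-induced) and 72 to 76 (no-Cre) genes were called with a library left out. Of all genes, 43.5% to 48.9% and 32.8% to 43.6% were called in those fits. Medians of the ribosomal protein genes ran from -0.65 to -0.51 and from -0.52 to -0.43. Length and GC offsets moved the medians to -0.329 and -0.253 and turned Rpl24 to 0.15 and 0.071. Adding pseudogenes turned Rpl26 to -0.44 and -0.365. Of 2200 values of the 40 named genes under the alternatives, 62 lost their call, 30 gained one and 4 called values changed sign. Replicate numbers 2 and 3 are shared by Lin28a-induced and wild-type libraries only, and same-numbered libraries did not deviate together (correlations -0.028 and -0.079). With the replicate block these 4 libraries gave 68 called genes (4 higher, 64 lower; 22.7% of all genes called) and a median of -0.58, and without the block 59 (16.7%). Depth limited only Rpl23a, Rps3a2, Rps3a3 and the 5 genes not tested.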

Other observations

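Hosts of small nucleolar RNAs, whose transcripts also open with a TOP motif, were set beside the ribosomal protein genes. Of all tested genes, 49.3% and 42.5% were called in the Lin28a-induced and no-Cre groups against wild type, 25.0% and 21.4% lower. Of 7 tested hosts, 4 were called lower in the Lin28a-induced and 6 in the no-Cre group than in wild type. Between the transgenic groups none was called, where 2.91% of all tested genes were. There 6 hosts had fold changes above 0 and 1 below, with a median of 0.179. At an unadjusted p under 0.05 in edgeR, 2 were higher and 1 lower in the Lin28a-induced group. Snhg12 stood at 16.3 and 14.7 CPM in the Lin28a-induced and no-Cre groups against 30.6 in wild type, and Gas5 at 208, 174 and 269 CPM. Mitochondrial ribosomal proteins, which are encoded in the nucleus and serve the separate ribosome of the mitochondrion, numbered 75 tested genes. Of these, 33 were lower and 3 higher in the Lin28a-induced group than in wild type, and 30 and 2 in no-Cre, with medians of -0.12 and -0.145 against -0.586 and -0.475 in the cytoplasmic family. Their shares called, 48% and 42.7%, were near those of all genes. By direction, 44% and 40% of them were called lower, above the shares of all genes called lower. Between the transgenic groups only Mrpl13 was called (-0.21 ± 0.043, adjusted p = 0.0217, from 87.2 CPM in no-Cre to 75.5 in Lin28a-induced). This was 1.33% of the 75 genes, against 2.91% of all tested genes.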
